A study of Mus musculus with 32 samples.

Results

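Heart and kidney of the mouse were compared gene by gene in 5-methylcytosine (5mC) signal measured by MeDIP-seq. In this assay, an antibody pulls down methylated DNA fragments, and the sequenced fragments are counted. The comparison holds 25982 of the 27179 genes of the deposited table, those with at least 1 CPM (reads scaled by library size) in at least 2 of the 8 libraries. The labels list 2 5mC samples of flash-frozen heart and 2 of formalin-fixed, paraffin-embedded (FFPE) heart, set against 2 of frozen and 2 of FFPE kidney, and the same for brain and liver. The table holds 1 column for each organ and preservation, called a library here, so that heart and kidney have 2 each. The brain and liver columns entered the same fit and add to its estimate of the spread. No treatment or genotype is given for any group. The sources used here do not give age, strain or sex, nor whether a column is 1 of the listed samples or both together, nor whether a column holds antibody or Input reads. Since its name is that of a MeDIP-seq table, the columns were taken to hold 5mC.

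Methylation of cytosine in CG dinucleotides silences many promoters, while the bodies of genes and the space between them are methylated by default. The Hox genes are transcription factor genes set in 4 clusters that give cells their position along the axis from head to tail. In mouse, Hox genes of the posterior groups are needed to form the kidney, which arises from intermediate mesoderm, whereas the heart arises from mesoderm further forward. Sarcomere genes encode the contractile apparatus of heart muscle, and transporters such as those of the proximal tubule make the kidney's filtrate into urine.

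The RefSeq promoters of 5 genes on which the results turn are shown on GRCm38.p6, the assembly behind mm10, from 250 bases before to 50 bases after the annotated start, 5′ to 3′ on the gene's strand, with each CG dinucleotide in capitals. Hoxa11os and Hoxd3 carried some of the largest differences, Pax2 and Klf2 are transcription factor genes of kidney and of vessel lining, and Myh6 stands for the heart muscle genes. For Pax2, the first of 3 listed starts is shown. The counts are per gene, so they do not place the signal in these windows.
Hoxa11os (chr6:52244993-52245292, plus strand): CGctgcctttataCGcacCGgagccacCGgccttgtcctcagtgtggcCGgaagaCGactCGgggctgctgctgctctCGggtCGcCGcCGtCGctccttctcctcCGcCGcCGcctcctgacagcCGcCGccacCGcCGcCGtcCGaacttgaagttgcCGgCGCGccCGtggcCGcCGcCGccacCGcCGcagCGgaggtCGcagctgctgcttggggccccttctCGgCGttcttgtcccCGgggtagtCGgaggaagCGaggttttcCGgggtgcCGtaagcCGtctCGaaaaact
Hoxd3 (chr2:74711743-74712042, plus strand): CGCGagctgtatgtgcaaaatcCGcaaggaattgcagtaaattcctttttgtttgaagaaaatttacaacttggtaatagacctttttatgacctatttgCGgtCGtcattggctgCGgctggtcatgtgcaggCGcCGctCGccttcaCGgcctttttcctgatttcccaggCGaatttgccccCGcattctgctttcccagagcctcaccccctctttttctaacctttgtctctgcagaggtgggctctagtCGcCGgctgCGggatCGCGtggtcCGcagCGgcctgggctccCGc
Pax2 (chr19:44746351-44746650, plus strand): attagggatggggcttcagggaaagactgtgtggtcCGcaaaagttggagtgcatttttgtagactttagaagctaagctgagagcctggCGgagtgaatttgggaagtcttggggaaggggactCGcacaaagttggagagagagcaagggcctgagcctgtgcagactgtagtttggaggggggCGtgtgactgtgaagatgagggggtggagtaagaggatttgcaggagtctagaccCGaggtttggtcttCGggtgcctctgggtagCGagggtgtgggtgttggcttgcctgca
Klf2 (chr8:72318812-72319111, plus strand): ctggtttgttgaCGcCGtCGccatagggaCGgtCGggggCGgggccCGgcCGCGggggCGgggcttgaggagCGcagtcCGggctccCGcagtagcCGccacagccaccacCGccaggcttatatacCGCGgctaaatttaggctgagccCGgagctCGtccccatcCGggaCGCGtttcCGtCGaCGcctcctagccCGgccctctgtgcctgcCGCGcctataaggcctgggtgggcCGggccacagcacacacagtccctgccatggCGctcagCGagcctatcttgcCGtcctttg
Myh6 (chr14:54966558-54966857, minus strand): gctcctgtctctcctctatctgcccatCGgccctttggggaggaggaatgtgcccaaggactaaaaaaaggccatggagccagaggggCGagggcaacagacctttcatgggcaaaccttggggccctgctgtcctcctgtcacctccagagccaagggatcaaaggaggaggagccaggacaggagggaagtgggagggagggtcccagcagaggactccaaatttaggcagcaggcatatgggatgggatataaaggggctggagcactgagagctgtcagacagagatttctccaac
These windows hold 41 CG dinucleotides in Hoxa11os, 20 in Hoxd3, 7 in Pax2, 32 in Klf2 and 2 in Myh6. Over the 18257 tested genes with a promoter in RefSeq the median was 13, and at least 1 CG was found in 95.1% of them. The windows differ in CG content from 2 to 41 although all 5 genes had less signal in heart than in kidney.

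The libraries held 2641841 reads in frozen heart and 2386266 in FFPE heart, against 3447081 in frozen kidney and 2164158 in FFPE kidney. Frozen kidney stood apart. The heart libraries had 0 reads on 295 and 834 of the tested genes, against 1891 in frozen and 1055 in FFPE kidney, and brain and liver had 158 to 1360. Of counts between 1 and 20, 48.7% and 50.2% were even in heart, against 56.2% in frozen kidney and 49.7% in FFPE kidney, and 49.4% to 51.8% elsewhere. The log2 CPM of frozen and FFPE heart correlated at 0.917 across genes, and that of frozen and FFPE kidney at 0.862. Between the organs, frozen heart and frozen kidney correlated at 0.860, and FFPE heart and FFPE kidney at 0.915. Genes are not independent replicates, and these values are descriptions. A count of 0 allows up to 1.05 CPM in frozen heart, 1.19 in FFPE heart, 0.911 in frozen kidney and 1.42 in FFPE kidney, counting error only.

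Most of the genes called between heart and kidney were lower in heart. In a limma fit with organ and preservation as terms, 554 genes were lower and 89 higher in heart at a Benjamini-Hochberg adjusted p under 0.05, which is 2.13% and 0.343% of the genes tested and 2.47% together. At an unadjusted p under 0.05, 2576 genes were lower and 2151 higher. Both heart libraries lay below both kidney libraries in 546 of the 554 lower genes and above them in 88 of the 89 higher genes. Over all tested genes these shares were 20.8% and 23.0%, but the contrast that called the genes uses the same values. The lower genes had a median difference of -1.05 on the log2 scale (-1.23 in frozen and -0.83 in FFPE tissue), and the higher genes 1.69 (1.69 and 1.59). After quantile normalization 274 genes were lower and 108 higher, so that the share of higher calls was 28.3% in place of 13.8%, and 67 of the 93 called genes chosen by rule to be named were called again. The median difference over all tested genes was 0.07.

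These counts rested on single libraries. For the gene lists below, counts with a library left out should be read against those for all tested genes given here. Some of them lie near that share. Without the frozen heart library no gene was called by limma (1302 lower and 621 higher at an unadjusted p under 0.05), and without the FFPE heart library 34 were lower and 0 higher. Without the frozen kidney library 189 were lower and 86 higher, and 164 of the 554 and 32 of the 89 genes were called again, as were 48 of those 93. Without the FFPE kidney library 1735 were lower and 2032 higher. With only 1 library of each organ and preservation, the residual of the fit is how far organ differences change with preservation. Across all tested genes, the heart minus kidney difference in frozen tissue correlated at 0.147 with that in FFPE tissue, and at 0.396 over the 12993 genes with a mean signal at or above the median. The 643 called genes had the same sign in both, as the plot of frozen against FFPE differences shows. The fit sets the mean of these differences against a residual that holds their disagreement. The calls themselves therefore favour the same sign, which is no separate support.

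**Figure D1:**
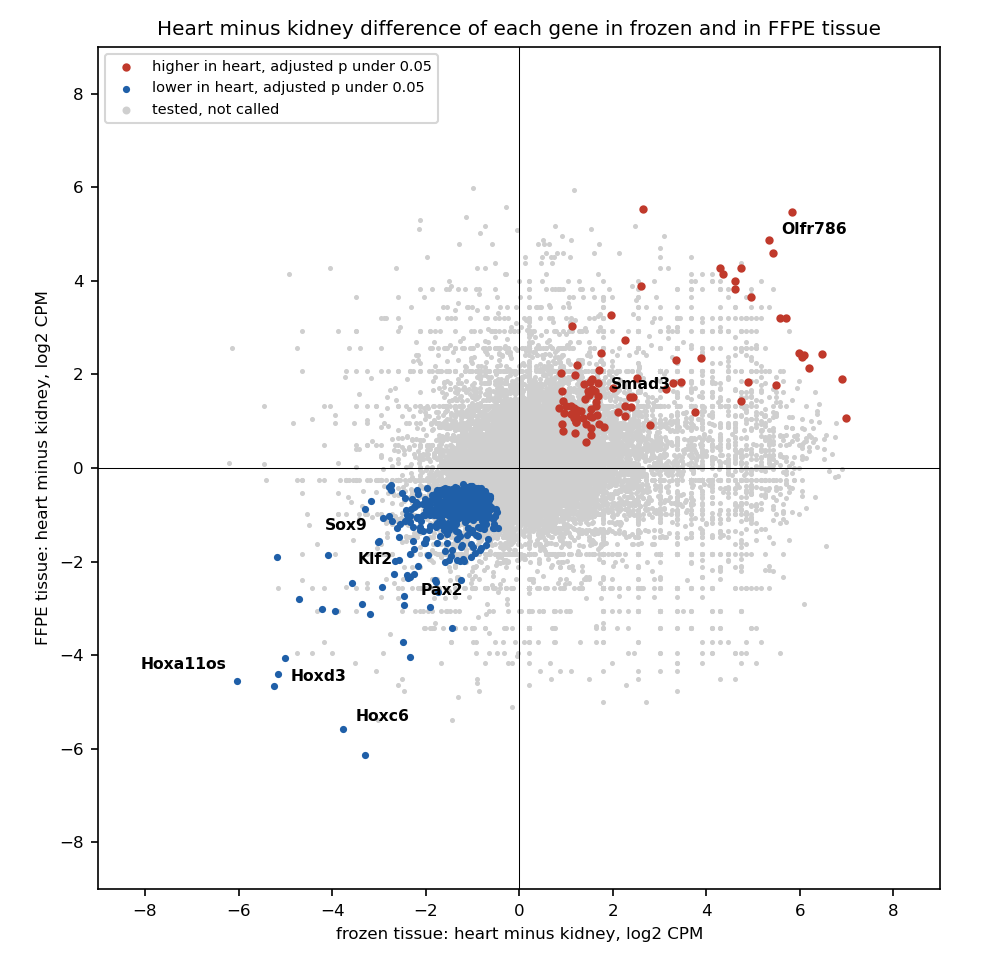
Heart minus kidney difference of log2 CPM for each of the 25982 tested genes, in frozen tissue on the x axis and in FFPE tissue on the y axis. The 554 lower genes fill the lower left and the 89 higher genes the upper right quadrant, and Hoxd3, Hoxa11os and Hoxc6 lie farthest down among the labelled genes.

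Genes lower in heart were found in all 4 Hox clusters, and kidney was the high organ in most of them. Of 44 tested Hox cluster genes, 16 were lower and 0 higher in heart than in kidney, against 2.13% and 0.343% of all tested genes, and their median difference was -2.36 on the log2 scale (-2.58 in frozen and -2.29 in FFPE tissue). Both heart libraries lay below all others in 1 of the 44 (2.27%), against 3.47% of all tested genes. Both kidney libraries lay above all 6 libraries of heart, brain and liver in 30 of the 44 (68.2%), against 3.53%. Without the frozen kidney library 7 of the 44 were lower and the median was -2.29, without the FFPE heart library 1, and without the frozen heart library 0 with a median of -2.02.

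In the HoxD cluster 4 of 11 tested genes were lower, 0 were higher and the median difference was -2.47. Hoxd3 had 13 reads in frozen and 14 in FFPE heart, against 555 in frozen and 259 in FFPE kidney, and brain and liver had 5 to 18. Only the kidney libraries were high. The difference was -4.78 ± 0.54 on the log2 scale (27.5-fold lower in heart, limma adjusted p = 0.00111; chromosome 2, 74711993 to 74748271). Hoxd12 had 6 reads in frozen heart and 4 in FFPE heart, against 283 and 95 in kidney, with 1.04 to 2.84 CPM in brain and liver (-4.95 ± 0.80, adjusted p = 0.00602). Hoxd4 had 28 and 33 reads in heart, against 210 and 134 in kidney (-2.47 ± 0.54, adjusted p = 0.0266, and 0.0634 after quantile normalization). Hoxd3 and Hoxd4 overlap in the annotation, so that reads between them may be shared. Hoxd10 had 3 and 4 reads in heart, against 105 and 26 in kidney (-3.76 ± 0.94, adjusted p = 0.0450). Hoxd13 and Hoxd11, named here after their values were seen, did not pass the test, with 15 and 42 against 158 and 73 reads for Hoxd13 (adjusted p = 0.0621) and 2 and 0 against 23 and 17 for Hoxd11 (adjusted p = 0.0988).

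In the HoxC cluster 5 of 10 tested genes were lower, 0 were higher and the median difference was -3.11. Hoxc6 had 12 reads in frozen and 3 in FFPE heart, against 196 and 141 in kidney, while brain and liver held 3.96 to 5.49 CPM (-4.68 ± 0.65, adjusted p = 0.00378). Its neighbours were also lower. Hoxc5 had 4 reads and 1 read in heart, against 51 and 88 in kidney (adjusted p = 0.00459). Brain, with 34 and 34 reads, and liver, with 16 and 21, lay above heart too. Hoxc4 had 4 and 4 in heart, against 168 and 63 in kidney (adjusted p = 0.00645). Hoxc8 had 15 and 7 reads in heart, against 100 and 83 in kidney (adjusted p = 0.0310). Hotair, a long noncoding RNA gene between Hoxc11 and Hoxc12, had 31 and 21 reads in heart, against 184 and 90 in kidney (-2.33 ± 0.54, adjusted p = 0.0310). Fitted differences of genes with fewer than 4 reads in a library depend on the 0.5 reads that the deposited values add to each count.

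In the HoxA cluster 6 of 13 tested genes were lower, 0 were higher and the median difference was -2.30. Hoxa11os, the antisense RNA gene of Hoxa11, had 2 reads in frozen and 5 in FFPE heart, against 190 and 108 in kidney, and 0 to 4 in brain and liver (-5.30 ± 1.01, adjusted p = 0.0121; chromosome 6, 52245243 to 52249769). Hoxa11 itself, which the antisense gene overlaps, had 5 and 6 reads in heart, against 102 and 84 in kidney, and 0 in all 4 brain and liver libraries, but missed the threshold (-3.98 ± 1.12, adjusted p = 0.0712). The counting is not stated to use strand, so that reads of these 2 genes cannot be told apart. Hoxa2 had 23 and 26 reads in heart, against 325 and 121 in kidney (-3.02 ± 0.57, adjusted p = 0.0109). Hoxa3 had 27 and 15 reads in heart, against 119 and 101 in kidney (adjusted p = 0.0199). Hoxa5 and Hoxa6 were also lower (adjusted p = 0.0294 and 0.0431), and both overlap Hoxa3 in the annotation. Kidney was not high throughout the cluster. Hoxa9, Hoxa10 and Hoxa13 had 0 to 17 reads in the heart and kidney libraries and were not called (log2 differences of 0.24, 1.36 and 0.77).

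The HoxB cluster had the smallest median difference of the 4, -1.17, and 1 of 10 tested genes was lower. It was Hoxb1, with 21 reads in frozen and 7 in FFPE heart, against 226 and 54 in kidney (-3.15 ± 0.54, adjusted p = 0.00737). Hoxb3 had 80 and 78 reads in heart, against 381 and 112 in kidney, which did not pass the test (adjusted p = 0.0544), and liver held 140 and 117. Hoxb4 and Hoxb5 differed little between the organs, with log2 differences of 0.12 and -0.42 (adjusted p = 0.949 and 0.573).

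**Figure D2:**
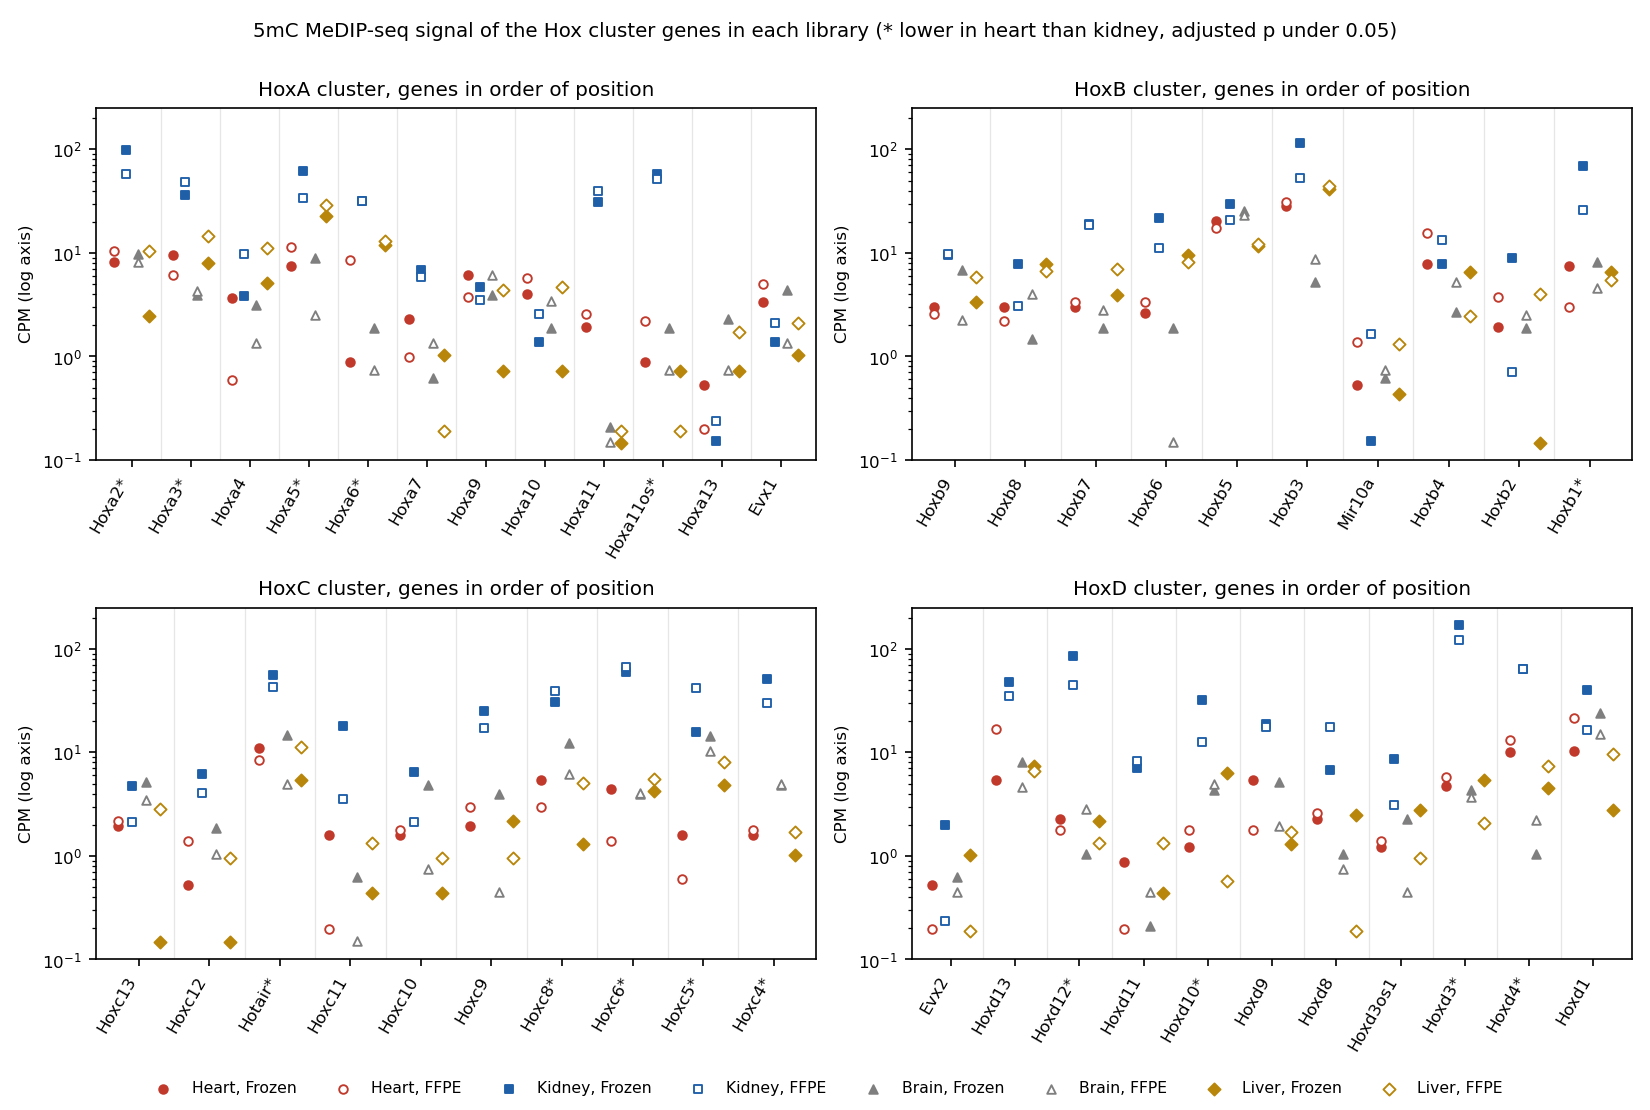
CPM on a log axis of the tested genes of the 4 Hox clusters, all but 1 of them shown, in order of position, with heart circles left of kidney squares, then brain and liver, and frozen libraries filled and FFPE libraries open. Kidney squares stand above all other symbols in most of the genes, and asterisks mark genes lower in heart.

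Among genes for kidney transcription factors, a few were lower in heart. Of 49 tested genes on this list, which also holds 6 Hox genes, 3 were lower (6.12%, against 2.13% of all tested genes), 0 were higher and the median difference was -0.25. Both kidney libraries lay above all others in 10 (20.4%), against 3.53%. The list had 0 lower genes without frozen heart, 1 without FFPE heart, 1, with 1 higher, without frozen kidney and 7, with 4 higher, without FFPE kidney. Pax2, which drives formation of the nephron, had 13.5 and 14.5 CPM in frozen and FFPE heart, against 70.0 and 74.4 CPM in kidney, and 13.1 to 26.5 CPM in brain and liver. The kidney libraries were the only high ones. The difference was -2.37 ± 0.33 (5.16-fold lower in heart, adjusted p = 0.00378; chromosome 19, 44746601 to 44838269). With 1 heart or kidney library left out, the adjusted p of Pax2 ran from 0.00115 without FFPE kidney to 0.134 without frozen heart. Zfhx3, a homeobox gene, fell to 591 and 714 CPM in heart, against 1101 and 1021 CPM in kidney (adjusted p = 0.0354), although it was not called after quantile normalization (adjusted p = 0.682). Kidney was not the high organ here, since liver held 1274 and 1536 CPM, and brain, at 528 and 675 CPM, was close to heart. The third was Hoxd10. Osr2, named after its values were seen, had 12 and 10 reads in heart, 87 and 60 in kidney and 2 to 4 in brain and liver, without passing the test (-2.69 ± 0.85, adjusted p = 0.106). Pax8 and Wt1, further regulators of the nephron, had log2 differences of 0.86 and -0.26 and were not called (adjusted p = 0.169 and 0.702).

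Among the other large falls were genes for transcription factors and signalling. Mab21l2, a gene of eye and body wall development, had 20.2 and 10.5 CPM in heart, against 111 and 79.6 CPM in kidney (-2.69 ± 0.36, 6.46-fold, adjusted p = 0.00299), with brain high and liver low. Sox9, a transcription factor of cartilage, glia and kidney tubule, had 16.7 and 18.5 CPM in heart, against 133 and 54.1 CPM in kidney (-2.27 ± 0.29, adjusted p = 0.00299). Heart was the low organ here, since brain held 47.3 to 64.4 CPM and liver 121 to 137 CPM. Hic1, a repressor often methylated in tumours, had 16.0 and 11.3 CPM in heart, against 71.2 and 48.0 CPM in kidney (adjusted p = 0.00385). Rrad, a small GTPase of muscle, had 11.1 and 18.5 CPM in heart, against 65.4 and 51.3 CPM in kidney (adjusted p = 0.00459). Foxc1, a forkhead factor of heart and kidney development, had 11.1 and 19.7 CPM in heart, against 67.2 and 48.0 CPM in kidney (adjusted p = 0.0120), and was not called without the frozen kidney library (adjusted p = 0.109). Prr23a2, Pnmal2 and Krtap28-13 completed the named falls, with 5.00-fold, 3.96-fold and 3.79-fold lower signal in heart, and reads on near copies of Prr23a2 and Krtap28-13 may be split between them. The other 2 of the 12 largest falls among genes of at least median signal carry only an Entrez number. Several Hox genes with less signal fell further.

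Some heart muscle genes were lower in heart. Of 34 tested sarcomere genes 8 were lower (23.5%, against 2.13% of all tested genes), 0 were higher and the median difference was -0.57 (-0.67 in frozen and -0.53 in FFPE tissue), against 0.07 over all genes. Both heart libraries lay below both kidney libraries in 22 of the 34, against 20.8% of all tested genes. They lay below all 6 other libraries in 14 (41.2%), against 3.47% of all tested genes. Myh6, the fast heavy chain of cardiac myosin, had 105 and 117 CPM in frozen and FFPE heart, against 173 and 229 CPM in kidney (-0.85 ± 0.16, adjusted p = 0.0123; chromosome 14, 54941921 to 54968017), and 161 to 218 CPM in brain and liver. Its neighbour Myh7, the slow heavy chain, had 88.3 and 75.2 CPM in heart, against 142 and 143 CPM in kidney (adjusted p = 0.0266). Ttn, which encodes the giant spring protein titin, had 2194 and 2579 CPM in heart, against 4384 and 4467 CPM in kidney (-0.90 ± 0.20, adjusted p = 0.0292). In each of these 3 genes the groups did not overlap and brain and liver stood above heart. Myh6 and Myh7 were not called after quantile normalization (adjusted p = 0.110 and 0.136).

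Tcap, which caps titin at the Z disc, had the largest fall of the list, with 8.95 and 11.3 CPM in heart, against 37.5 and 28.6 CPM in kidney (-1.70 ± 0.36, adjusted p = 0.0207). Ankrd1, a stress-induced titin partner, had 22.3 and 30.8 CPM in heart, against 68.8 and 51.3 CPM in kidney (adjusted p = 0.0182). Xirp1 and Ldb3 were also lower (adjusted p = 0.0403 and 0.0449). Tnnt2, cardiac troponin T, did not pass the test (-1.13 ± 0.39, adjusted p = 0.140). Sarcomere genes called lower numbered 2 without the frozen kidney library, 0 without either heart library, 0 without the preservation term, 15 without FFPE kidney and 3 after quantile normalization, while the median stayed between -0.65 and -0.47 in these fits. In bulk tissue, a change in the mix of cells and a change within 1 cell type cannot be told apart.

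Other heart lists had fewer calls. Of 30 genes for calcium handling and conduction 5 were lower (16.7%, against 2.13%) and 0 higher, with a median difference of -0.19 that became 0.002 after quantile normalization, where 1 was lower. Leaving out a library gave 0 without either heart library, 2 without frozen kidney and 7, with 2 higher, without FFPE kidney. Hcn2, a pacemaker channel, had 96.7 and 131 CPM in heart, against 402 and 222 CPM in kidney (-1.41 ± 0.25, adjusted p = 0.00804). Jph2, which ties the cell membrane to the calcium store, had 61.6 and 47.5 CPM in heart, against 157 and 83.9 CPM in kidney (adjusted p = 0.0255). Kcnh2, a repolarizing potassium channel, Popdc2, a membrane protein of the conduction system, and Casq2, the calcium buffer of the store, were 2.00-fold, 1.86-fold and 1.96-fold lower (adjusted p = 0.0350, 0.0378 and 0.0409). After quantile normalization these 3 and Jph2 were not called (adjusted p = 0.0816, 0.0685, 0.0685 and 0.0509). Ryr2, the calcium release channel, had a difference of -0.42 ± 0.18 (adjusted p = 0.218). None of the 24 genes for cardiac signalling and metabolism was called by limma. At an unadjusted p under 0.05, 4 were lower and 1 higher, against 2576 and 2151 of all 25982 tested genes. Nppa, a heart hormone, had 26 and 32 reads in heart, against 22 and 28 in kidney.

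Genes for cardiac transcription factors were called at a share near that of all genes. Foxc1, lower in heart, was the only 1 of 30 called (3.33%, against 2.13% of all tested genes). The median difference was -0.10, or 0.03 after quantile normalization. Tbx5 had 92.5 and 91.1 CPM in heart, against 120 and 81.5 CPM in kidney (adjusted p = 0.816). Gata4 had 46 and 61 reads in heart, against 29 and 40 in kidney (adjusted p = 0.288). Hand2 had 6 and 15 reads in heart, against 0 and 1 in kidney, and Nkx2-5 had 5 and 6 in heart, against 0 and 3 in kidney, and neither was called (adjusted p = 0.183 and 0.457). Apart from the 15 reads of Hand2 in FFPE heart, the counts of these 2 genes lie close to the 3 reads that a count of 0 allows.

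Tubule genes of the nephron were called no more often than all tested genes. Of 51 proximal tubule genes 0 were higher and 1 was lower in heart (1.96%, against 2.13% of all tested genes). The median difference was 0.24. Both heart libraries lay above both kidney libraries in 18 of the 51 and below them in 4, against 23.0% and 20.8% of all tested genes. At an unadjusted p under 0.05 in limma, 8 were higher and 1 was lower, against 2151 and 2576 of all 25982 tested genes. Kidney lay below all other organs in 6 (11.8%), against 4.38%. Lrp2, the endocytic receptor megalin, had 344 and 341 CPM in heart, against 339 and 307 CPM in kidney (0.09 ± 0.15, adjusted p = 0.810). Slc34a1, a phosphate transporter, and Slc5a2, the glucose transporter SGLT2, had log2 differences of 0.25 ± 0.24 and 0.20 ± 0.25 (adjusted p = 0.642 and 0.711). The called gene went the other way. Amn, the partner of cubilin in protein uptake, had 9.30 and 7.35 CPM in heart, against 31.7 and 39.9 CPM in kidney (-2.11 ± 0.49, adjusted p = 0.0340), with 21.1 to 25.6 CPM in brain and 3.07 to 8.90 CPM in liver.

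None of the 45 genes of the loop, distal tubule and collecting duct was called by limma, and the median difference was 0.11. Before adjustment, 6 were higher and 4 lower at p under 0.05, against 2151 and 2576 of all 25982 tested genes. Umod, which encodes a urinary protein, had 36.3 and 53.8 CPM in heart, against 27.5 and 34.3 CPM in kidney (0.53 ± 0.26, adjusted p = 0.300). Aqp2, the water channel of the collecting duct, had 14.2 and 9.33 CPM in heart, against 22.9 and 20.1 CPM in kidney (adjusted p = 0.206). Slc12a1 and Slc12a3, salt transporters of the loop and the distal tubule, had log2 differences of -0.30 and -0.20 (adjusted p = 0.440 and 0.686). In the podocyte, the filter cell of the glomerulus, 3 of 23 genes were lower in heart (against 2.13% of all tested genes) and 0 higher. They were Cdkn1c, Lamb2, a laminin of the filter's membrane, and Plce1, a phospholipase, at 2.41-fold, 1.63-fold and 1.61-fold lower (adjusted p = 0.00586, 0.0269 and 0.0297). After quantile normalization Lamb2 and Plce1 were not called, with differences of -0.35 and -0.34 (adjusted p = 0.267 and 0.278). The list had 0 lower genes without either heart library, 1 without frozen kidney and 6, with 2 higher, without FFPE kidney. Nphs1, which encodes the slit protein nephrin, had a log2 difference of -0.62 ± 0.19 (adjusted p = 0.0972). Among 32 epithelial genes, 1 was lower (3.1%, against 2.13% of all tested genes) and 0 were higher. The lower gene was Tjp3 of the tight junction (adjusted p = 0.0397, and 0.144 after quantile normalization).

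**Figure D3:**
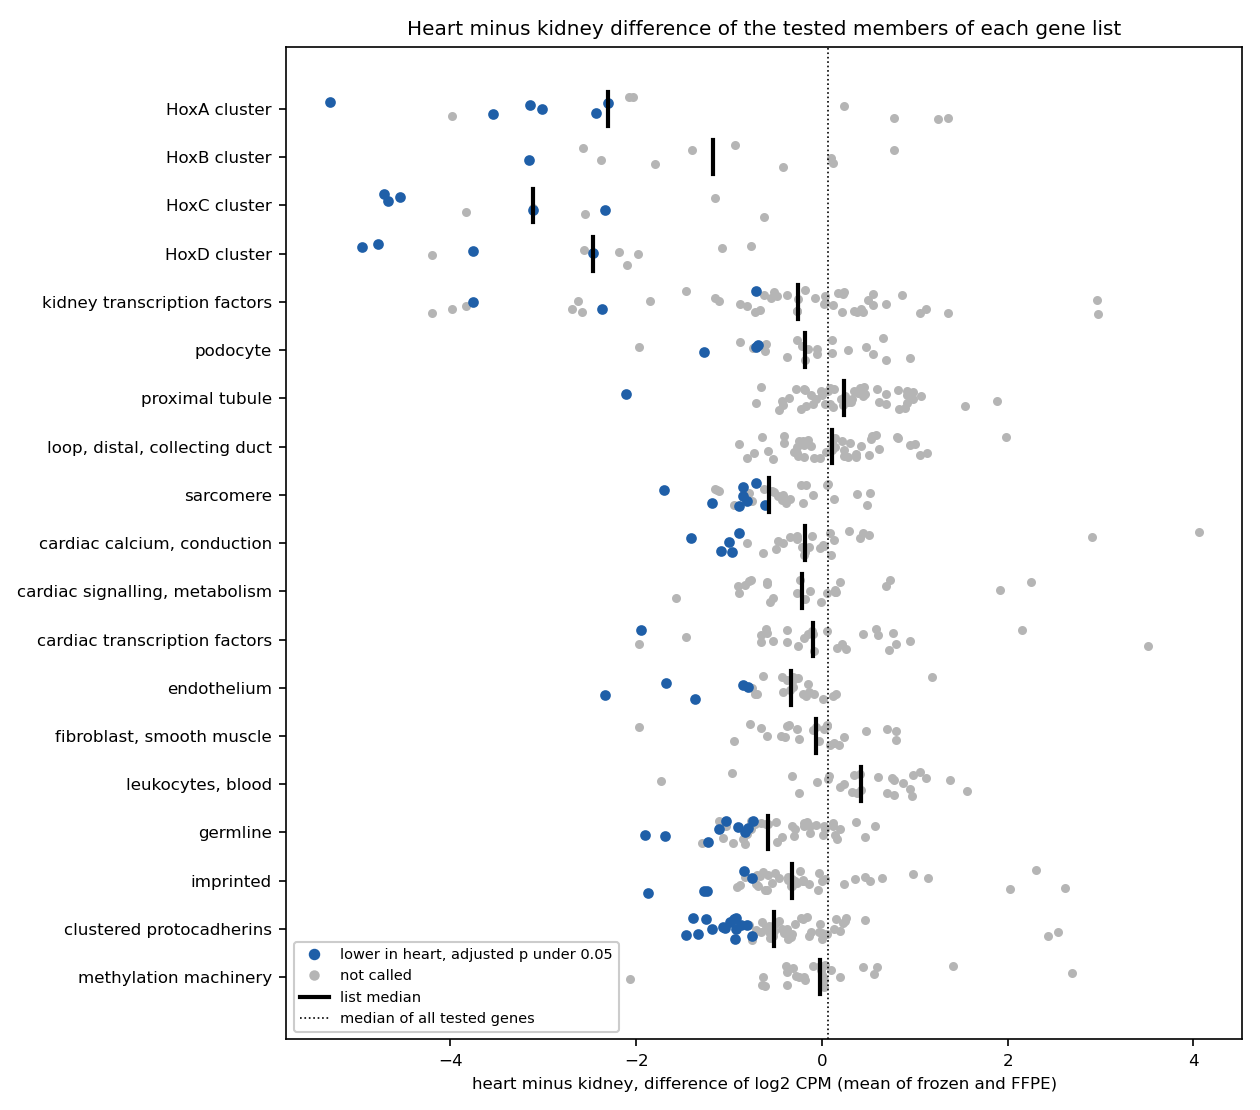
Heart minus kidney difference of log2 CPM for each tested member of 19 gene lists, with called members in blue, list medians as black bars and the median of all tested genes (0.07) as a dotted line. The 4 Hox clusters stand far to the left, sarcomere, germline and protocadherin genes moderately so, and nephron transporters close to the dotted line.

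Among cell types found in both organs, the lining of vessels had some genes lower in heart. Of 26 endothelial genes 5 were lower (19.2%, against 2.13%) and 0 higher, and the median difference was -0.33. Both heart libraries lay below both kidney libraries in 11, against 20.8% of all tested genes. Heart lay below all other organs in 7 (26.9%), against 3.47%. Klf2, a transcription factor induced by blood flow, had 7.55 and 6.55 CPM in heart, against 39.6 and 31.9 CPM in kidney (-2.34 ± 0.31, 5.06-fold, adjusted p = 0.00299). Heart was lowest of the 4 organs, with brain at 28.1 and 36.0 CPM and liver at 59.4 and 86.2 CPM. Klf4, its relative, had 9.30 and 5.36 CPM in heart, against 28.1 and 18.2 CPM in kidney (adjusted p = 0.0297). Kdr, the main VEGF receptor, and Cdh5, the cadherin of endothelial junctions, were 1.80-fold and 1.74-fold lower (adjusted p = 0.0283 and 0.0336, and 0.101 and 0.110 after quantile normalization), and Plvap, of fenestrated vessels, was the other called gene (adjusted p = 0.0397). Without the frozen kidney library 3 of the 26 were lower, and without either heart library 0. Of 25 fibroblast, smooth muscle and epicardial genes and 27 leukocyte and blood genes none was called by limma. At an unadjusted p under 0.05, 6 were lower and 1 higher in fibroblast, smooth muscle and epicardial genes, and 0 lower and 5 higher in leukocyte and blood genes. Over all 25982 tested genes these counts were 2576 lower and 2151 higher. Of genes that mark cells of the other organs, 2 of 30 neuronal genes were lower (6.67%, against 2.13% of all tested genes). Among them was the tubulin gene Tubb3 (adjusted p = 0.0487, and 0.231 after quantile normalization). Of 36 hepatocyte genes none was called, with 3 lower and 3 higher at an unadjusted p under 0.05. How far the mix of cells moves with these differences was not tested.

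Some germline genes, many of which CG methylation keeps silent in body tissues, were lower in heart. Of 47 tested 9 were lower (against 2.13% of all tested genes) and 0 higher, the median difference was -0.58 (-0.51 in frozen and -0.46 in FFPE tissue), and heart lay below all other organs in 16 (34.0%), against 3.47% of all tested genes. Dazl, which binds RNA in germ cells, had 24.4 and 29.6 CPM in heart, against 106 and 70.7 CPM in kidney (-1.69 ± 0.26, adjusted p = 0.00487). Zfp42, known as Rex1 in stem cells, had 63.0 and 70.9 CPM in heart, against 134 and 138 CPM in kidney (adjusted p = 0.00661). H2bc1, a testis histone, and Sycp1, of the synaptonemal complex, were 3.75-fold and 2.35-fold lower (adjusted p = 0.0102 and 0.0145). The other 5 were Tdrd6, Tuba3a, Rpl10l, Dpep3 and Fkbp6, and Tuba3a has a near copy. Of the 47, 0 were lower without frozen heart, 1 without FFPE heart, 3 without frozen kidney, 17 without FFPE kidney and 5 after quantile normalization.

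Imprinted genes, which carry methylation on the copy from 1 parent, were lower in 5 of 45 cases (11.1%, against 2.13%) and higher in 0, with a median difference of -0.32. After quantile normalization 3 were lower and the median was -0.11. Without either heart library 0 were lower, without frozen kidney 2, and without FFPE kidney 16, with 2 higher. Cdkn1c, a cell cycle inhibitor expressed from the maternal copy, had 33.5 and 43.9 CPM in heart, against 90.0 and 95.2 CPM in kidney (-1.27 ± 0.20, adjusted p = 0.00586). Gnas, which encodes a G protein subunit from a complex imprinted locus, had 130 and 167 CPM in heart, against 438 and 274 CPM in kidney (-1.24 ± 0.22, adjusted p = 0.00977), and brain at 128 and 177 CPM was close to heart. Peg12 and Peg13 were 3.67-fold and 1.78-fold lower (adjusted p = 0.0104 and 0.0169, the second 0.0985 after quantile normalization), and Peg10 was the other called gene (adjusted p = 0.0407). Gnas overlaps its antisense gene and Peg13 lies within Trappc9, so that reads may be shared. H19, Igf2 and Meg3 had log2 differences of -0.04, 0.46 and 0.03 and were not called (adjusted p = 0.943, 0.447 and 0.936). None of 27 genes of the methylation machinery was called by limma. At an unadjusted p under 0.05, 4 were lower and 1 higher, against 2576 and 2151 of all 25982 tested genes. Dnmt1, Dnmt3a and Tet3 had log2 differences of 0.03, -0.0036 and 0.03.

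Clustered protocadherins, cell surface proteins by which neurons tell themselves apart, were lower in 15 of 58 genes (25.9%, against 2.13%) and higher in 0. The alpha cluster carried most of it, with 10 of 14 lower and a median difference of -0.92, against 4 of 22 and -0.53 in the beta cluster and 1 of 22 and -0.13 in the gamma cluster. Pcdha9 had 67.6 and 50.6 CPM in heart, against 168 and 130 CPM in kidney (-1.34 ± 0.20, adjusted p = 0.00459), and Pcdha11 had 64.1 and 78.0 CPM in heart, against 201 and 170 CPM in kidney (adjusted p = 0.00459). Each alpha gene's span overlaps 14 others, so these are not independent cases. Of the 58, 0 were lower without frozen heart, 1 without FFPE heart, 9 without frozen kidney, 19 (with 1 higher) without FFPE kidney and 6 after quantile normalization. Of 92 potassium channel genes 7 were lower (7.61%, against 2.13%) and 0 higher, with Kcng1, Kcnj4 and Kcnj11 at 2.28-fold, 2.00-fold and 2.35-fold (adjusted p = 0.00669, 0.00722 and 0.00970). Without either heart library 0 were lower, without frozen kidney 4, after quantile normalization 4, and without FFPE kidney 11, with 7 higher. Of 363 zinc finger family genes 21 were lower and 3 higher (against 2.13% and 0.343% of all), led by Zfp575 with 58.1 and 80.0 CPM in heart, against 197 and 179 CPM in kidney (-1.46 ± 0.19, adjusted p = 0.00299). The family had 9 lower and 4 higher after quantile normalization, 37 and 28 without FFPE kidney, 8 and 2 without frozen kidney, 2 and 0 without FFPE heart, and 0 and 0 without frozen heart.

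Among 54 genes for Wnt, Fgf, Bmp and hedgehog ligands, the signals that pattern embryonic tissue, 3 were lower and 1 higher (against 2.13% and 0.343% of all). There were 0 calls without either heart library or without frozen kidney, and 8 lower and 2 higher without FFPE kidney. Wnt7b, a signal of the kidney's collecting system, had 54.9 and 66.9 CPM in heart, against 215 and 114 CPM in kidney (-1.37 ± 0.25, adjusted p = 0.0102), and Wnt5a and Fgf17 were 1.82-fold and 2.43-fold lower (adjusted p = 0.0371 and 0.0385, and 0.101 and 0.0576 after quantile normalization). Bmp4 went the other way, with 68.3 and 50.6 CPM in heart, against 35.7 and 29.1 CPM in kidney (0.87 ± 0.21, adjusted p = 0.0397). Kidney was the low organ for Bmp4, since brain and liver held 49.1 to 87.8 CPM.

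**Figure D4:**
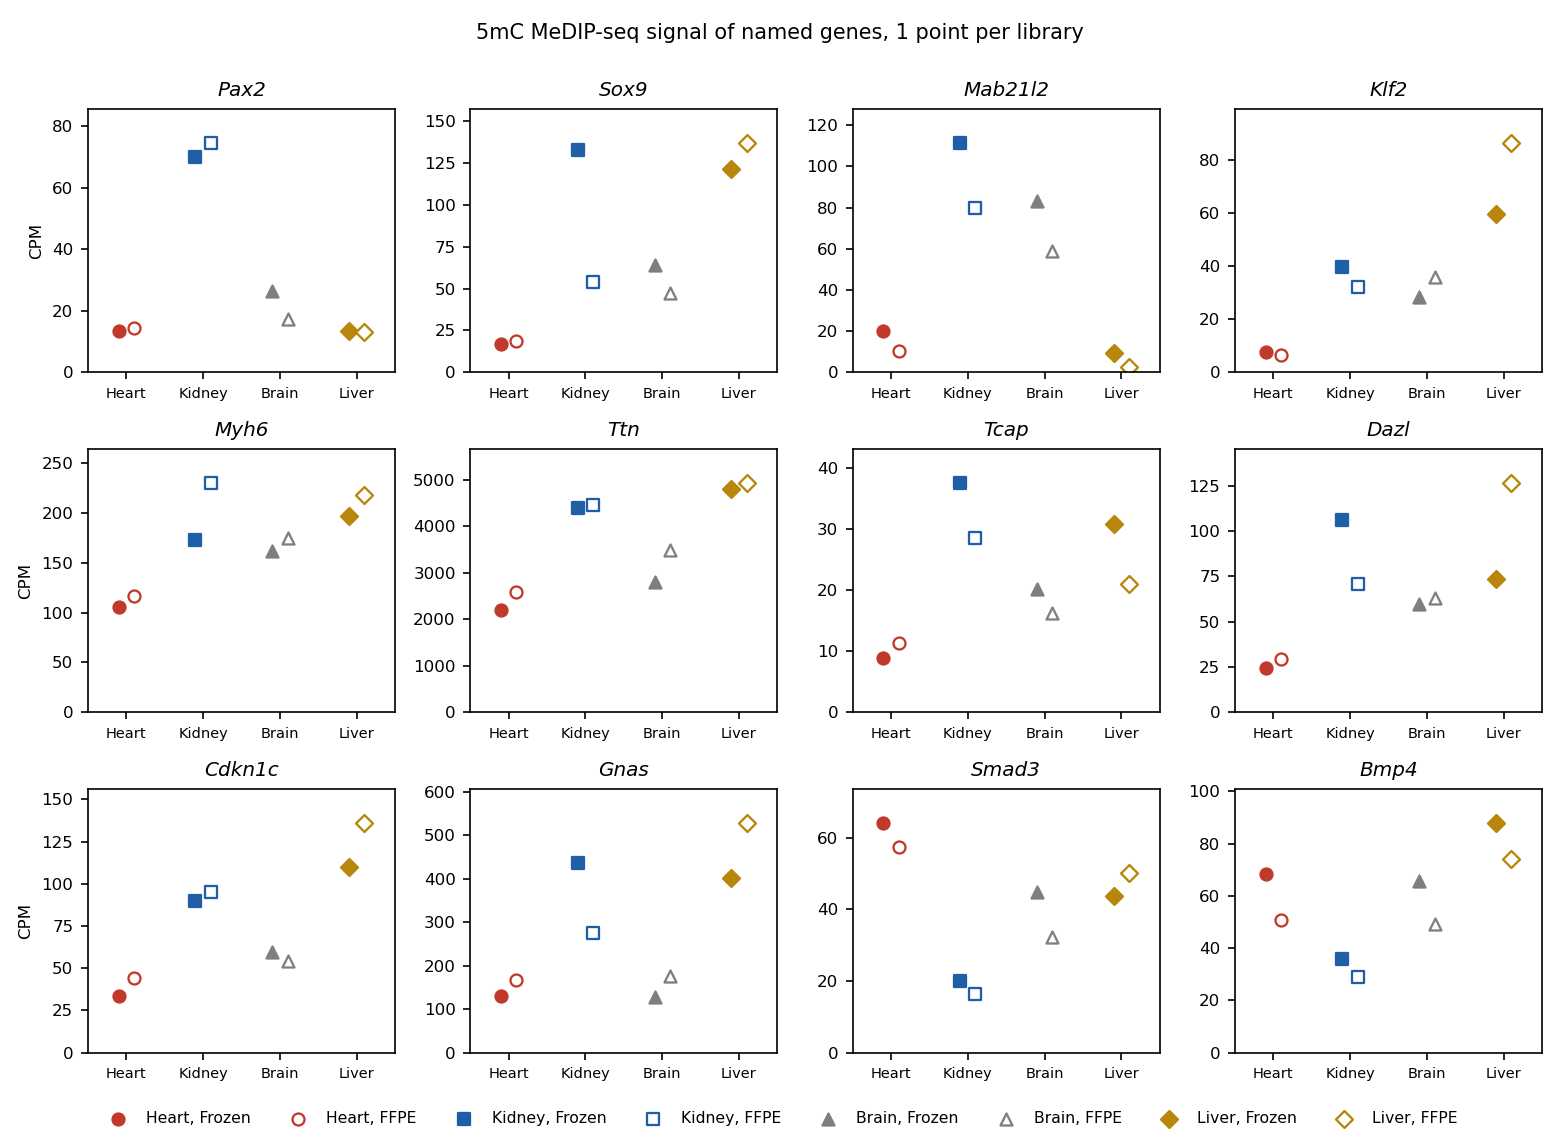
CPM of 12 named genes, 1 point per library, with heart left of kidney, then brain and liver, and frozen libraries filled and FFPE libraries open. Pax2 is high in kidney alone, the heart points are lowest for Sox9, Klf2, Myh6, Ttn, Tcap, Dazl and Cdkn1c, and the kidney points are lowest for Smad3 and Bmp4.

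The genes higher in heart were fewer, and in most of them kidney was the low organ. Heart lay above all 6 other libraries in 27 of the 89 (30.3%), and kidney below all others in 60 (67.4%). Over all tested genes these shares were 4.78% and 4.38%, but the contrast that called the genes uses the same values. Smad3, which relays TGF-beta signals, had 64.1 and 57.4 CPM in frozen and FFPE heart, against 19.9 and 16.3 CPM in kidney (1.75 ± 0.26, 3.37-fold, adjusted p = 0.00459; chromosome 9, 63646766 to 63757994). With 1 heart or kidney library left out, the adjusted p of Smad3 ran from 0.000656 without FFPE kidney to 0.193 without frozen heart, with 0.0708 without FFPE heart. Msh5, a meiotic mismatch repair gene, had 47.2 and 34.7 CPM in heart, against 15.0 and 13.9 CPM in kidney (adjusted p = 0.0108). Ppih, a splicing-associated isomerase, and Vps26a, of the retromer that recycles membrane proteins, were 2.88-fold and 3.14-fold higher (adjusted p = 0.0145 and 0.0169). Nr2f2, a nuclear receptor of atrial and venous identity, had 31.4 and 30.0 CPM in heart, against 16.9 and 7.33 CPM in kidney (adjusted p = 0.0375), with brain higher than heart at 57.2 and 66.9 CPM. Gpr108, Slc16a13 and Alox12e were 2.89-fold, 3.01-fold and 3.01-fold higher (adjusted p = 0.0279, 0.0339 and 0.0410). Slc16a13 and Alox12e were not called after quantile normalization (adjusted p = 0.0527 and 0.0637).

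Part of the higher calls were genes that kidney left almost uncovered. Of the 89, 18 (20.2%) had 0 reads in frozen kidney, against 7.28% of all tested genes, and 8 had 0 in both kidney libraries. The calls use these same kidney values, so a raised share of 0 counts may follow from the choice of genes. The largest of these by bound, named after its values were seen, was Tlx1, a homeobox gene of spleen development, with 24 and 26 reads in heart, against 0 and 0 in kidney and 0 to 8 in brain and liver (adjusted p = 0.0269). It was at least 8.37-fold higher when each kidney library is set at 3 reads, the most that a count of 0 allows. Olfr786, an odorant receptor gene, had 17 and 17 reads in heart, against 0 and 0 in kidney (at least 5.75-fold, adjusted p = 0.0179). Of 1104 odorant receptor genes 7 were higher and 5 lower (0.634% and 0.453%, against 0.343% and 2.13% of all). In this family 25.3% of genes had 0 reads in frozen kidney, against 7.28% of all tested genes. Near copies make the assignment of reads uncertain in this family.

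The mitochondrial genome gave more reads in heart. Its 15 genes took 7.24% of frozen heart and 2.72% of FFPE heart reads, against 2.68% of frozen kidney and 0.885% of FFPE kidney reads. Within each preservation heart was above kidney, but FFPE heart barely exceeded frozen kidney. Of the 15 genes 5 were higher (against 0.343% of all tested genes) and 0 lower, all 15 differences were positive (0.44 to 1.63), and the median was 1.38 (1.33 in frozen and 1.51 in FFPE tissue). All 15 lie on the same small genome, so they are not independent cases. Both heart libraries lay above both kidney libraries in 5 of the 15, against 23.0% of all tested genes. ATP6 and ATP8, subunits of ATP synthase, and ND2, ND4L and ND6, subunits of complex I, were the called genes. The libraries of ND4L overlapped, with 351 CPM in FFPE heart and 396 CPM in frozen kidney. ATP6 had 2038 and 775 CPM in heart, against 662 and 249 CPM in kidney (1.63 ± 0.39, adjusted p = 0.0378), and its span overlaps ATP8. Frozen brain, at 8.66%, was above frozen heart, and liver held 1.35% and 1.64%. The amount of mitochondrial DNA and its methylation cannot be told apart, since Input was not analysed here.

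Rn45s, the repeated gene for the 45S ribosomal RNA precursor, went the other way. It took 0.521% of frozen heart and 1.84% of FFPE heart reads, against 2.34% of frozen kidney and 3.49% of FFPE kidney reads (-1.69 ± 0.35, adjusted p = 0.0195, and 0.175 after quantile normalization). The difference was -2.34 in frozen and -1.03 in FFPE tissue. FFPE was above frozen in both organs. It was named after its values were seen.

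**Figure D5:**
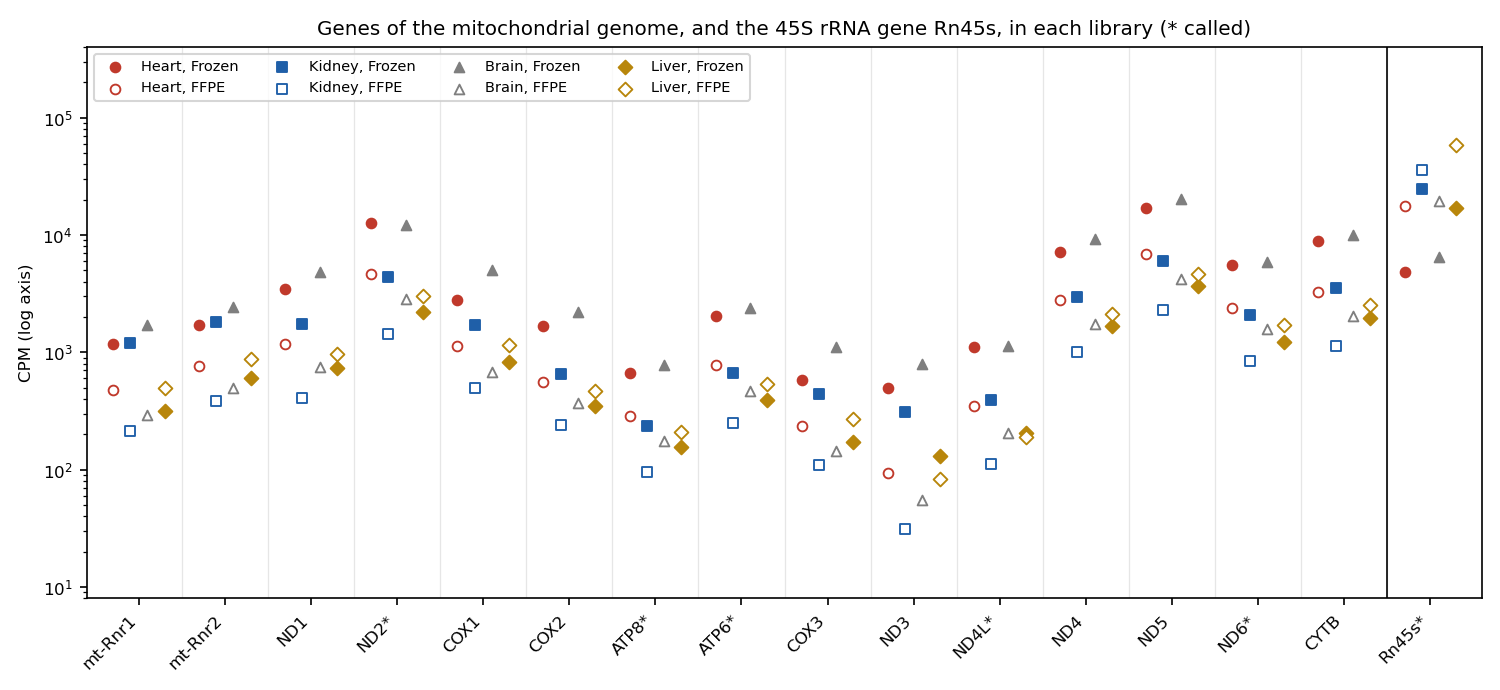
CPM on a log axis of the 15 mitochondrial genes in order of position and of Rn45s, with heart circles left of kidney squares, then brain and liver, and frozen libraries filled and FFPE libraries open. Heart lies above kidney of the same preservation except for frozen mt-Rnr1 and mt-Rnr2, and below it in Rn45s, and asterisks mark called genes.

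The called genes were compared in length, promoter CG content and chromosome, which the fit did not use, and in signal, which it did. Genes lower in heart had a median length of 14.1 kb and those higher 15.1 kb, against 15.4 kb over all tested genes. Among genes with at least the median signal, however, the 521 lower genes had a median of 15.7 kb and the 45 higher genes 28.1 kb, against 29.0 kb over the 12993 tested. Lower genes had a median of 17 CG dinucleotides in the promoter window (369 genes with a RefSeq promoter), higher genes 14 (57 genes), and all tested genes 13. Lower genes also had more signal, with a median mean of 6.41 log2 CPM, against 4.21 over all genes. The variance trend of the fit uses this mean signal, so the calls are not independent of it. Among the genes with at least the median signal the lower genes had 17 CG dinucleotides and all tested genes 18, although the lower genes still had more signal (6.49 against 5.50 log2 CPM). Promoters were at hand for 66.6% of lower and 64.0% of higher genes, so the comparison of CG content is void for the whole sets. By chromosome, lower genes made up from 1.27% of tested genes on chromosome 1 to 4.37% on the chromosome that carries the protocadherin clusters, and 0 of 101 on the Y chromosome.

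Whether preservation changed the heart minus kidney difference was tested with an interaction term. No gene passed in limma at an adjusted p under 0.05, the smallest being 0.174, while 2440 had an unadjusted p under 0.05. This fit leaves 2 residual degrees of freedom. Leaving out a brain or a liver library, chosen after seeing the data, gave 70 to 260 calls. The absence of calls therefore does not show that frozen and FFPE tissue gave the same difference.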

How the data were processed

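The deposited table holds log2 CPM of MeDIP-seq reads per gene in 8 columns, called libraries here, 1 for each organ and preservation, although the labels list 2 5mC samples of each. Per the submitters' processing notes, Bowtie2, featureCounts, limma and mm10 were used. The sources used here do not give which feature was counted, nor the handling of strand and of reads with several matches. The values have the form of limma's voom, with 0.5 reads added to each count, and whole reads were recovered from them within 0.0001 of the count. The recovered reads gave the depths, read counts, read shares, counts of 0 and the floor of 3 reads. They also entered the alternative fits with voom precision weights and with a prior of 2 reads, while the main fit used the deposited values. Depth was 2164158 to 3699218 reads, and intervals and floors cover counting error only. Genes with at least 1 CPM in 2 libraries (25982, 1197 removed) were fitted with limma 3.58.1 in R 4.3.3, with organ, preservation and a variance trend, and p-values were adjusted by Benjamini and Hochberg over all of them at a threshold of 0.05. Values after ± are standard errors of the fit. Fold sizes are on this scale, and for genes with few reads they depend on the 0.5 reads added to each count. The spread behind the p-values is how far organ differences change with preservation among these 8 libraries. It cannot be read as a spread between animals, since no source used here says that the libraries are separate animals.

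Named genes were the 12 largest differences each way among called genes of at least median signal whose libraries did not overlap, leaving out predicted and small RNA genes, up to 4 called members of each list, 26 genes shown whether called or not, and genes said to be chosen after their values were seen. Some genes that this rule names are not reported here. The comparison, its gene lists and tests were chosen with earlier results of these data known. Alternatives were other filters, scalings, weights, added reads, models and left-out libraries. The fit was tested on simulated data.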

Additional observations from a re-analysis of the deposited data

How the results depend on the processing

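The counts of genes lower and higher in heart (554 and 89) depended on the scaling, the model and single libraries, and the cause was not tested. Higher genes numbered 44 without a filter on low values. Lower genes numbered 945 when each library was centred on its median and 274 after quantile normalization. With the heart and kidney libraries alone 163 genes were higher. Without the preservation term 151 were lower and 12 higher, with voom precision weights 960 and 186, and without a variance trend 0 and 0 in limma (1508 and 1849 at an unadjusted p under 0.05). Leaving out 1 library at a time gave 0 to 1735 lower and 0 to 2032 higher genes, with the extremes without frozen heart and without FFPE kidney. With a filter of 5 CPM, a prior of 2 reads or array quality weights, both counts stayed within 1.5 times, as they did without either brain library. No called gene changed sign in any of these settings, but this carries little weight. Several of the settings leave the difference itself unchanged. The called genes also had the same sign in frozen and in FFPE tissue, so leaving out 1 library could hardly reverse it. Genes whose difference changed with preservation numbered 0 under each of 5 other filters, scalings and priors. With a brain or liver library left out, chosen after seeing the data, they numbered 70 to 260. No paired analysis was possible because the columns carry no replicate numbers. Frozen kidney, with 1891 tested genes at 0 reads, limits what can be said of genes with little signal.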
